A study of Homo sapiens with 6 samples.

Results

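The genes described here encode the glycolytic pathway from glucose entry to pyruvate, the enzymes and carriers of lactate, and the pyruvate dehydrogenase complex with its kinases and a phosphatase. The 32 genes were chosen by name, and all 32 were among the 23686 genes of the deposited tables. All 32 had at least 10 reads in each of the 6 libraries and were among the 14582 genes tested. The RNA came from HEK293 cells, a human cell line of embryonic kidney origin, that were positive for green fluorescent protein (GFP). The 3 co-culture libraries are of GFP-positive cells kept for 10 h with DAAO-carrying HEK293 cells as a source of reactive oxygen species (ROS). DAAO commonly stands for D-amino acid oxidase, an enzyme that forms hydrogen peroxide from D-amino acids, and D-alanine was given at 25 µM. The control group (3 libraries) held GFP-positive cells labelled Wt, and the cells of both groups grew in high-glucose medium with serum and were collected by fluorescence-activated sorting. The labels carry 1 treatment text for both groups, so whether the controls had D-alanine or neighbours is not given. They do not say whether libraries of a group came from separate cultures, so the p-values measure the spread between these libraries, which may be technical.

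Glycolysis splits glucose into pyruvate in the cytosol and yields ATP and NADH. Lactate dehydrogenase turns pyruvate into lactate and restores NAD+, while pyruvate dehydrogenase sends pyruvate into the mitochondrial tricarboxylic acid cycle as acetyl-CoA. Pyruvate dehydrogenase kinases (PDK) switch the complex off by phosphorylation, and the phosphatase PDP1 switches it on. Many genes of the pathway are textbook targets of the hypoxia-inducible factors, and GAPDH and PKM carry cysteines that hydrogen peroxide can oxidise.

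Gene-assigned reads ran from 19091085 to 36250314 per library. In CPM, the read count of a gene scaled to a fixed library total, 1 read was worth 0.0276 to 0.0524. That range is from raw totals, whereas the CPM values of genes also carry the TMM scaling given below. The 8 HEK293 markers examined were all detected, with group means from 6.58 CPM (PAX2) to 1279 CPM (VIM) in co-culture, and 9 markers of leukocytes, hepatocytes, endothelium and muscle had at most 14 reads in a library, with CD3E at 0 in every one. Of the HEK293 markers, VIM and INA were higher in co-culture (log2 fold change 0.40 and 0.38, edgeR adjusted p 0.00793 and 0.0118) and 0 were lower. That is 25% of the 8 markers, beside 4.83% of all tested genes. The log2 fold change was above 0 for 7 of the 8, and that of PAX2 was -0.24. VIM and INA stood at 0.38 and 0.35 with the strand class in the model (edgeR adjusted p 0.198 and 0.235), and without control 1 at 0.37 and 0.39 (edgeR adjusted p 8.91e-05 and 0.000837). The libraries differed in 2 further respects. Reads on the strand opposite to the gene had a median share of 0.124% and 0.211% in co-culture libraries 2 and 3 and 1.57% to 1.75% in the other 4, so that a strand class held co-culture samples only. Control 1 stood apart from controls 2 and 3 in many of the 32 genes, as given below. Values without control 1 are therefore given where they change a call. Control 1 was singled out from these same values, so its removal widens the difference in genes where it lay near the co-culture libraries. The p-values without it show how far a call rests on that library and are no separate support. Of the 32 genes, 18 were called without control 1, 0 without control 2 and 1 without control 3. The shares of all genes called in these settings were 20.8%, 0.44% and 5%. The called genes named here are also given from a model that includes the strand class. There the group difference comes from co-culture library 1 and the controls alone.

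Of the 32 genes, 2 were higher and 0 lower in co-culture at an adjusted p under 0.05 (edgeR's quasi-likelihood test, Benjamini-Hochberg over all tested genes), a share of 6.25%, while 4.83% of all tested genes were called (2.66% higher and 2.17% lower). The genes that rose were ALDOA, a glycolytic aldolase, by 24.9%, and PDK1, a pyruvate dehydrogenase kinase, by 34.3%. At an unadjusted p under 0.05, 14 of the 32 genes were higher and 0 lower, or 43.8%, while 11.7% of all tested genes were higher at that threshold. The log2 fold change was above 0 for 25 of the 32 genes and for 49.6% of all tested genes. The median log2 fold change was 0.18 over the 32 genes and -0.002 over all tested genes. The lowest value was that of PFKFB2 (-0.12) and the highest that of ALDOC (1.09). In 11 of the 32 genes all co-culture libraries lay above all controls, and in 0 all lay below, while 14.3% of all tested genes lay wholly above and 15% wholly below. In bulk RNA, fewer cells with much of a transcript and less of it per cell cannot be told apart. The calls depended on the libraries and the scaling. Without control 1, 17 of the 32 genes were higher and 1 lower in the same test, beside 20.8% of all genes called (10.6% higher and 10.3% lower). Without control 3 only PDK1 was called, beside 5% of all genes. Leaving out co-culture library 1, 2 or 3 or control 2 left 0 of the 32 called, beside 0.831%, 0.503%, 2.18% and 0.44% of all genes. With the strand class in the model 0 were called (0.199% of all genes), and with scaling by library totals also 0 (6.05% of all genes). DESeq2 called 7 of the 32 (7.08% of all genes) and limma-voom 3 (4.43% of all genes), all of them higher. Scaling by totals moved the share of higher genes among all calls from 55.1% to 35.1%, and 21 of the 32 genes were then above 0.

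**Figure D1:**
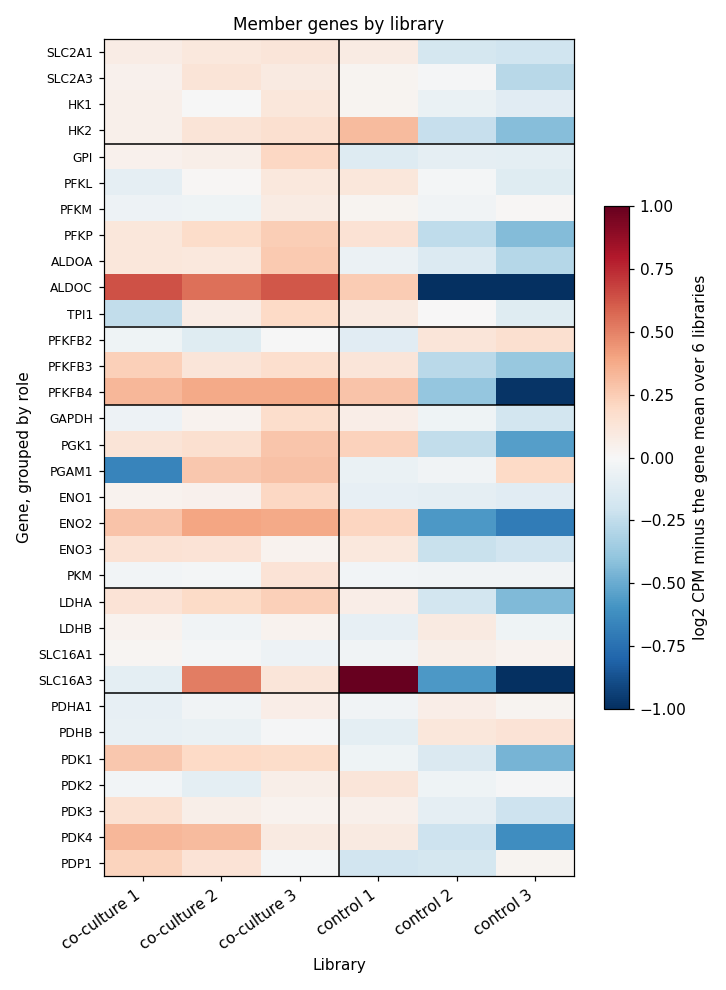
Level of each of the 32 genes (rows, grouped by role in the order of the text and separated by lines) in each library (columns), as log2 CPM minus the gene's mean over the 6 libraries, with colours saturating at 1 unit in either direction. Control 1 resembles the co-culture columns in rows such as ENO2, PGK1 and PFKFB4, while controls 2 and 3 are lower there, and PGAM1 is low in co-culture library 1 alone.

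Control 1 had the highest level of the 3 controls in 24 of the 32 genes (75.0%), against 39.5% of all tested genes. It exceeded the mean of controls 2 and 3 by more than 1.5-fold in 6 of them (18.8%), against 7.96% of all tested genes. These were SLC16A3, ALDOC, PFKFB4, ENO2, HK2 and PGK1, with log2 ratios of 2.06, 1.28, 0.94, 0.85, 0.64 and 0.62. In 14 of the 32 genes (43.8%) control 1 lay within the range of the co-culture libraries, against 25.9% of all tested genes. Controls 2 and 3 both lay below all co-culture libraries in 20 of the 32 genes (62.5%), against 24.9% of all tested genes. The coefficient of variation was larger among the controls than among the co-culture libraries in 25 of the 32 genes (78.1%), against 69.0% of all tested genes.

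The promoter windows of 6 genes are printed because these genes span those that were called (ALDOA and PDK1), those with a high control 1 (ENO2 and PGK1), and the paired subunits of lactate dehydrogenase (LDHA and LDHB). Each runs from 250 bases before to 50 after an annotated start, 5′ to 3′ on the gene's strand, from RefSeq on GRCh38.p14. Capitals mark ACGTG on either strand, the core of the site that hypoxia-inducible factors are known to bind. The word CACGTG, the E-box of MYC and related factors, holds ACGTG once on each strand and so counts as 2 matches. Where a gene had several starts, the window with most matches is shown.
ALDOA (chr16:30064247-30064546, plus strand): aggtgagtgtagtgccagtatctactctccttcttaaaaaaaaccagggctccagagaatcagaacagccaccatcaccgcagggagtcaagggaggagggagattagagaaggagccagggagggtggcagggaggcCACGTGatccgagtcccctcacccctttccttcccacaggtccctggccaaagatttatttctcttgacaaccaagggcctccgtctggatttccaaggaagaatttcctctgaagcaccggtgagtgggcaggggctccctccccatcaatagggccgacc
PDK1 (chr2:172555840-172556139, plus strand): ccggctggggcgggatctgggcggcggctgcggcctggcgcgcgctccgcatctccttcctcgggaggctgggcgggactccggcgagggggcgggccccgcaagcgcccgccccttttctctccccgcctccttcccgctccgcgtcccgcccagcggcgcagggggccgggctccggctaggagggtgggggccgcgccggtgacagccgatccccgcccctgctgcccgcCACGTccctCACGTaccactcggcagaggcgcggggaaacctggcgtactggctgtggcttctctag
LDHA (chr11:18394313-18394612, plus strand): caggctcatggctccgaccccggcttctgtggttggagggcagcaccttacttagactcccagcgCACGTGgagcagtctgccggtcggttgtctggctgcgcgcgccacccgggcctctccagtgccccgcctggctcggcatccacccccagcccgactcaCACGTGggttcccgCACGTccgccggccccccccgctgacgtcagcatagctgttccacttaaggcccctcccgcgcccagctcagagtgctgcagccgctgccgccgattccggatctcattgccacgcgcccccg
LDHB (chr12:21657793-21658092, minus strand): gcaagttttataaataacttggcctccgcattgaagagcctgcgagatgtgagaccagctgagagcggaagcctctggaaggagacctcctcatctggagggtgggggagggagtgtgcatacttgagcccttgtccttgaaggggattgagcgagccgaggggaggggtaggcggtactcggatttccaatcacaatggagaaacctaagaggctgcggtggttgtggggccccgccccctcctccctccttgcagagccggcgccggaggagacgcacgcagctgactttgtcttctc
ENO2 (chr12:6914330-6914629, plus strand): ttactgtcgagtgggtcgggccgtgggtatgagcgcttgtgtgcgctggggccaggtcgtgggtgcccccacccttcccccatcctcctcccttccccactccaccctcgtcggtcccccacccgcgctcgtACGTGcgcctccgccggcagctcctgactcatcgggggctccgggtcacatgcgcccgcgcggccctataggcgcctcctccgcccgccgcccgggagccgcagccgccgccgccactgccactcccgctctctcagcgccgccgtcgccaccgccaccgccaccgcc
PGK1 (chrX:78103998-78104297, plus strand): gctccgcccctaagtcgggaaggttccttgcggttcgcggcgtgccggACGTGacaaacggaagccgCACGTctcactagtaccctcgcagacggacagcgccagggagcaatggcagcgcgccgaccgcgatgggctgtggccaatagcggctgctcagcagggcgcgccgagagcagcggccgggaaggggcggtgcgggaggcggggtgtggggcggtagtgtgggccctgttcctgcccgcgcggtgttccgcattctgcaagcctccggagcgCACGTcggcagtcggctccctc

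The LDHA window held 5 matches, 4 of them in its 2 CACGTG words, and the LDHB window held 0. Showing the window with most matches favours genes with several starts. The windows of LDHA and PDK1 that are not printed held 0 matches, and LDHB had a single window. The ALDOA windows that begin at 30064029 and 30065510, also not printed, held 1 match each, outside any CACGTG. In the printed windows PGK1 had 3 matches, PDK1 had 2 and ENO2 had 1, none of them in a CACGTG. The 2 in the printed ALDOA window were the 2 strands of 1 CACGTG. Windows were found for 28 of the 32 genes, and those without were SLC2A3, PFKFB2, SLC16A1 and PDP1. Of the 57 windows of these 28 genes, 21 held ACGTG (36.8%), against 21.4% of all 35116 windows in the table. The word CACGTG was in 8 of the 57 (14%), against 7.26% of all windows. The windows compared were not limited to genes tested here, and base composition was not matched. Among genes with a single window, 7 of 16 held ACGTG (43.8%), against 21.3% of all genes with a single window. ACGTG was also present in windows of genes that were not called and moved little, such as PDHB (3 matches) and PDK2 (2), and absent from those of SLC2A1, ENO1, PFKFB4 and PDK4. A match to 5 letters is a description of the sequence and not a binding site.

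Glucose enters through SLC2A1 (GLUT1) and SLC2A3 (GLUT3) and is trapped by the hexokinases HK1 and HK2. None of these 4 genes passed the test. SLC2A1 stood at 84.3, 85.8 and 86.9 CPM in co-culture libraries 1, 2 and 3, and at 84.4, 70.5 and 69.5 CPM in controls 1, 2 and 3. Control 1 thus sat just above the lowest co-culture library, and the other controls lay clearly lower. The log2 fold change was 0.20 (SE 0.08, edgeR adjusted p 0.159), and without control 1 it was 0.29 (edgeR adjusted p 0.00121). Leaving out control 2 or control 3 instead gave 0.16 and 0.15 (edgeR adjusted p 0.408 and 0.301). The groups of SLC2A3 differed by 0.17 on the log2 scale (SE 0.08, edgeR adjusted p 0.232) and were just apart, at 101 CPM for the lowest co-culture and 100.2 CPM for the highest control library. Without control 1 SLC2A3 was called, at 0.23 (edgeR adjusted p 0.0307), but not without control 2 or control 3, at 0.205 and 0.077 (edgeR adjusted p 0.311 and 0.525). HK1, the hexokinase of most tissues, differed least of the 4, at 0.10 (95% interval -0.03 to 0.24). HK2, the inducible isoform, had 52.5, 55.5 and 56.9 CPM in co-culture against 63.5, 43.4 and 37.8 CPM in the controls. Its highest library was therefore a control, and its log2 fold change of 0.19 had an interval from -0.21 to 0.59. Without control 1 it was 0.44 (edgeR adjusted p 0.000345), but 0.13 without control 2 and 0.04 without control 3 (edgeR adjusted p 0.782 and 0.889). Reads on the opposite strand made up 11.6% of all reads over HK2, more than for any other of the 32 genes.

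Upper glycolysis converts glucose 6-phosphate into triose phosphates through the isomerase GPI, the phosphofructokinases, the aldolases and the triose phosphate isomerase TPI1. Of these 7 genes ALDOA rose. It stood at 839, 837 and 931 CPM in co-culture libraries 1, 2 and 3 and at 747, 705 and 636 CPM in controls 1, 2 and 3. All co-culture libraries lay above all controls, at means of 869 ± 53.7 and 696 ± 56.2 CPM (SD, n = 3 each). ALDOA was thus higher by 0.32 on the log2 scale (SE 0.08, edgeR adjusted p 0.0417). With the strand class in the model it was 0.27 (edgeR adjusted p 0.384), and without control 1 it was 0.37 (edgeR adjusted p 0.000454). The call was lost without each of the other 5 libraries (0.26 to 0.35, edgeR adjusted p 0.0736 to 0.161). ALDOC, the aldolase typical of brain, had a far lower count, of 33 to 192 reads per library. It measured 5.40, 5.08 and 5.36 CPM in co-culture against 4.14, 1.72 and 1.69 CPM in the controls. The groups did not overlap, yet control 1 lay nearer to the co-culture libraries than to the other controls. The log2 fold change of 1.09 (SE 0.30) did not pass edgeR's test (adjusted p 0.0672), and it was 1.63 without control 1 (edgeR adjusted p 8.31e-06). DESeq2 and limma-voom called it as well (adjusted p 0.0109 and 0.0356). ALDOC stood at 0.89 without control 2 and 0.84 without control 3 (edgeR adjusted p 0.221 and 0.104).

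GPI, which also moonlights as a secreted cytokine, had 782, 791 and 878 CPM in co-culture and 695, 712 and 710 CPM in the controls. Control 1 was the lowest of the controls here, and the groups did not overlap. GPI had a log2 difference of 0.21 (SE 0.07, edgeR adjusted p 0.0911), or 0.20 without control 1 (edgeR adjusted p 0.0184). The phosphofructokinases catalyse the committed step, and none of their 3 genes passed the test. PFKP, the platelet type, had 184, 194 and 202 CPM in co-culture against 188, 143 and 126 CPM in the controls. Control 1 lay inside the co-culture range and the others far below it. Its log2 fold change was 0.35 (SE 0.13, edgeR adjusted p 0.154), and 0.53 without control 1 (edgeR adjusted p 1.55e-05). Leaving out control 2 or control 3 instead gave 0.30 and 0.23 (edgeR adjusted p 0.350 and 0.221). PFKL, the liver type, and PFKM, the muscle type, had log2 fold changes of 0.02 (95% interval -0.14 to 0.18) and -0.004 (-0.14 to 0.13).

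TPI1 and PGAM1, the phosphoglycerate mutase of the lower pathway, were low in 1 co-culture library. TPI1 had 558 CPM in co-culture library 1 and 699 and 760 CPM in libraries 2 and 3, against 707, 663 and 610 CPM in the controls. PGAM1 had 44.6 CPM in co-culture library 1 and 85.1 and 86.3 CPM in the others, against 67.3, 68.6 and 80.8 CPM. The level of PGAM1 in library 1 was thus 52.0% of the mean of the other 2, and 84 of the 14582 tested genes were as low or lower by this ratio (0.576%). Multimapping reads, which STAR does not assign to genes, made up 8.42% of the reads in that library and 6.48% to 7.03% in the other 5. In GENCODE release 29, 13 processed pseudogenes are named after PGAM1 and 4 after TPI1. There are 61 for GAPDH, 6 for LDHA, 5 for PKM and 4 for ENO1. The log2 ratios of library 1 to the mean of the other 2 co-culture libraries were -0.16, -0.08, -0.09 and -0.09 for these genes. For PGAM1 and TPI1 they were -0.94 and -0.39. The part of multimapping in the low values of PGAM1 and TPI1 was not tested. Over all libraries the log2 fold change of PGAM1 was -0.001 (95% interval -0.64 to 0.64) and that of TPI1 0.03 (-0.21 to 0.26). Without co-culture library 1 they were 0.25 and 0.15 (edgeR adjusted p 0.220 and 0.438). With the strand class in the model PGAM1 was at -0.70 (SE 0.12, edgeR adjusted p 0.0835) and TPI1 at -0.24 (edgeR adjusted p 0.414).

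Fructose 2,6-bisphosphate is the strongest activator of phosphofructokinase, and the PFKFB enzymes make and degrade it. None of the 3 genes passed the test. PFKFB3, the isoform with the highest kinase activity, had 63.2, 58.3 and 60.2 CPM in co-culture against 58.1, 44.3 and 41.2 CPM in the controls. The groups did not overlap, although control 1 lay just below the lowest co-culture library. Its log2 fold change was 0.34 (SE 0.11, edgeR adjusted p 0.109). PFKFB4 had 9.71, 10.1 and 10.03 CPM against 9.40, 5.89 and 3.91 CPM, with the same order of the controls. Its log2 fold change was 0.65 (SE 0.26, edgeR adjusted p 0.168). Without control 1, PFKFB3 and PFKFB4 were higher by 0.50 and 1.05 (edgeR adjusted p 5.5e-05 and 0.000133). Without control 2 they stood at 0.29 and 0.60 (edgeR adjusted p 0.306 and 0.362). Without control 3 they stood at 0.24 and 0.38 (edgeR adjusted p 0.186 and 0.217). PFKFB2, the heart type, was on the other side of 0, at -0.12 (95% interval -0.32 to 0.08).

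**Figure D2:**
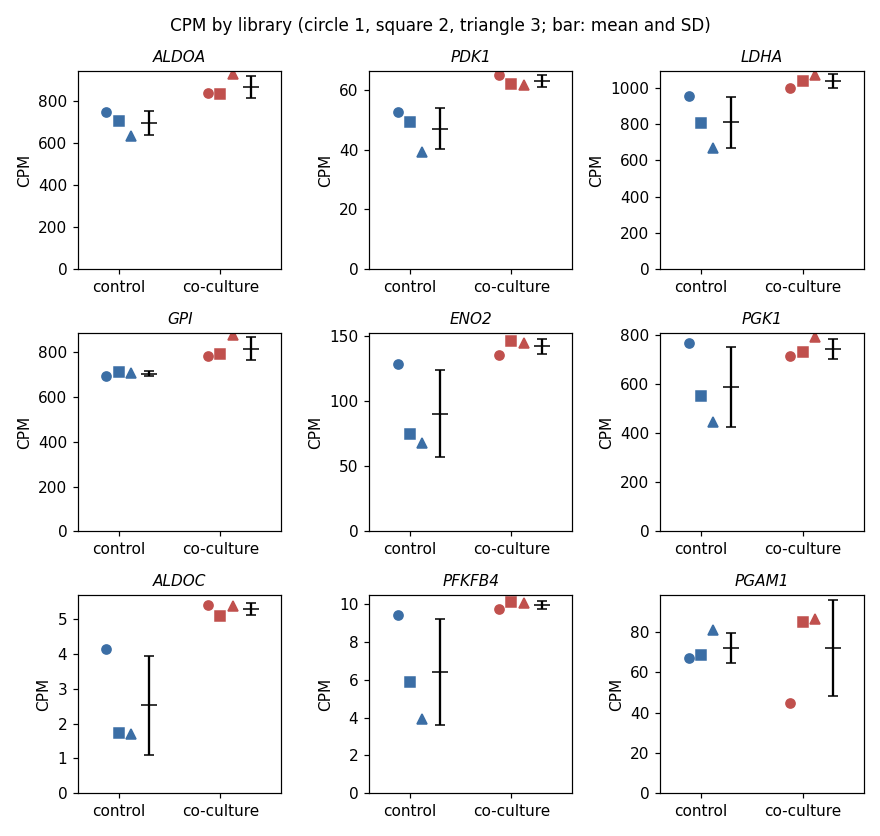
CPM (vertical axes, from 0) of 9 genes in each library, with controls in blue and co-culture in red, and the mean and SD (n = 3) at the right of each group. In ENO2, PGK1, ALDOC and PFKFB4 the circle of control 1 lies far above the other controls, whereas in GPI the 3 controls lie between 695 and 712 CPM.

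Lower glycolysis yields ATP at phosphoglycerate kinase (PGK1) and pyruvate kinase (PKM), after the oxidation step of GAPDH. None of its 7 genes passed the test in all 6 libraries. ENO1, the enolase of most cells, had 1974, 1986 and 2223 CPM in co-culture and 1815, 1809 and 1775 CPM in the controls. The groups did not overlap, and the controls spanned 1775 to 1815 CPM. Its log2 fold change was 0.20 (SE 0.07, edgeR adjusted p 0.129), called by DESeq2 (adjusted p 0.0422) and without control 1 (0.20, edgeR adjusted p 0.0201). ENO2, the enolase typical of neurons, had 135, 146 and 145 CPM against 129, 74.6 and 68.2 CPM. Here control 1 was close to the co-culture libraries, and the log2 fold change of 0.66 carried an SE of 0.25 (edgeR adjusted p 0.189). Without control 1 ENO2 had the smallest adjusted p of the 32 genes, with a log2 fold change of 1.00 (edgeR adjusted p 6.21e-09). ENO2 stood at 0.536 without control 2 and 0.485 without control 3 (edgeR adjusted p 0.342 and 0.376). PGK1 had 715, 730 and 792 CPM against 769, 551 and 447 CPM, so that control 1 lay inside the co-culture range. Its log2 fold changes were 0.34 (edgeR adjusted p 0.304) with all libraries and 0.58 (edgeR adjusted p 0.00255) without control 1. PGK1 stood at 0.295 without control 2 and 0.176 without control 3 (edgeR adjusted p 0.508 and 0.436). GAPDH, PKM and ENO3, the enolase of muscle, had log2 fold changes of 0.10, 0.06 and 0.20, with 95% intervals from -0.09 to 0.29, from -0.09 to 0.22 and from -0.10 to 0.50. These intervals leave room for an increase of the size seen in ENO1. The controls of PKM lay between 1805 and 1816 CPM.

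Lactate is made and used by tetramers of LDHA and LDHB and crosses the membrane through SLC16A1 (MCT1) and SLC16A3 (MCT4). LDHA, the subunit that favours lactate formation, had 999, 1037 and 1072 CPM in co-culture against 951, 804 and 670 CPM in the controls. The groups did not overlap. A log2 fold change of 0.36 (SE 0.11) missed the threshold (edgeR adjusted p 0.0855), passed it in DESeq2 (adjusted p 0.0130) and was 0.49 without control 1 (edgeR adjusted p 0.000293). LDHA stood at 0.35 without control 2 and 0.24 without control 3 (edgeR adjusted p 0.236 and 0.116). With the strand class in the model it was 0.31 (edgeR adjusted p 0.476). LDHB, the subunit that favours lactate use, had 1173, 1117 and 1167 CPM against 1080, 1213 and 1105 CPM, a log2 fold change of 0.02 (95% interval -0.13 to 0.18). SLC16A1, the carrier of most cells, was at -0.04 (95% interval -0.16 to 0.09). SLC16A3, the carrier of strongly glycolytic cells, had 38 to 150 reads per library. It measured 3.05, 4.66 and 3.55 CPM in co-culture, and 7.58, 2.19 and 1.46 CPM in the controls. Control 1 was the highest of all libraries and the other controls were the lowest, so the log2 fold change of 0.03 had an interval from -1.41 to 1.47. Without control 1 it was 1.07 (edgeR adjusted p 0.00382), but -0.23 without control 2 and -0.39 without control 3 (edgeR adjusted p 0.875 and 0.717).

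At the branch to the mitochondria, PDK1 rose and the subunits of its target did not. PDK1 stood at 65.0, 62.1 and 61.5 CPM in co-culture libraries 1, 2 and 3 and at 52.4, 49.0 and 39.2 CPM in controls 1, 2 and 3. The lowest co-culture library thus exceeded the highest control, with means of 62.9 ± 1.91 and 46.9 ± 6.86 CPM (SD, n = 3 each). The log2 fold change was 0.43 (SE 0.10, 95% interval 0.21 to 0.64, edgeR adjusted p 0.0345). With the strand class in the model it was 0.47 (edgeR adjusted p 0.263) and 0.52 without control 1 (edgeR adjusted p 0.000577). The call was also kept without control 3 (0.31, edgeR adjusted p 0.0343) and lost without each of the other 4 libraries (0.40 to 0.46, edgeR adjusted p 0.0854 to 0.160). The other kinases were not called. PDK4, the isoform that rises in fasting, had 14.2, 14.0 and 11.96 CPM against 11.93, 9.76 and 7.29 CPM, groups that just did not overlap. Its log2 fold change was 0.47 (SE 0.16, edgeR adjusted p 0.117). For PDK3 it was 0.16 (SE 0.07, edgeR adjusted p 0.215), and for PDK2 -0.04 (95% interval -0.20 to 0.11). Without control 1, PDK4 and PDK3 were higher by 0.66 and 0.23 (edgeR adjusted p 0.00219 and 0.00803). Without control 2 they stood at 0.485 and 0.15 (edgeR adjusted p 0.270 and 0.414). Without control 3 they stood at 0.295 and 0.10 (edgeR adjusted p 0.211 and 0.447).

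The phosphatase PDP1, which acts against the kinases, had 30.1, 28.4 and 25.4 CPM in co-culture and 22.5, 22.8 and 26.4 CPM in the controls. The groups overlapped through control 3, and the log2 fold change was 0.22 (SE 0.09, edgeR adjusted p 0.186). PDHA1 and PDHB, the catalytic subunits of the dehydrogenase, had log2 fold changes of -0.04 (95% interval -0.17 to 0.10) and -0.11 (-0.27 to 0.05). Without control 1, PDHB was the 1 lower gene of the 32 (-0.18, edgeR adjusted p 0.0294).

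**Figure D3:**
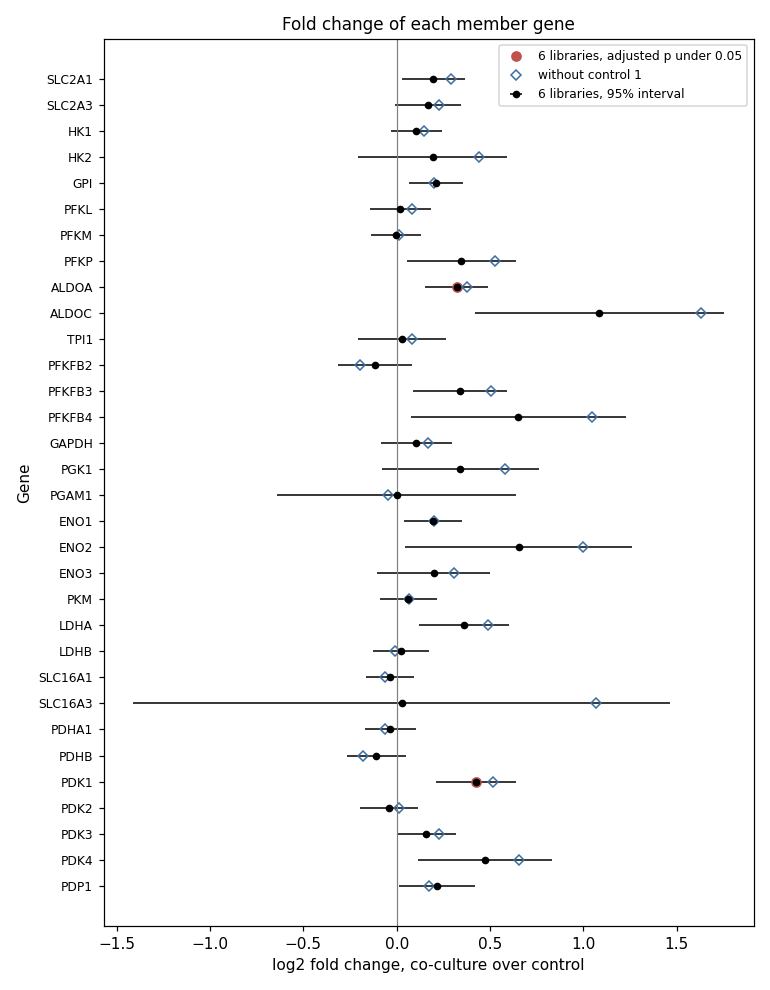
Log2 fold change of each of the 32 genes, co-culture over control (horizontal axis), with its 95% interval from all 6 libraries (black), the genes at an adjusted p under 0.05 in red, and the value without control 1 as open blue diamonds. ALDOA and PDK1 are red, and the diamonds of ALDOC, ENO2, PFKFB4 and SLC16A3 lie furthest to the right of their black points.

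Read ratios of 2 genes in 1 library do not depend on how libraries are scaled. Of 14 pairs, 5 had groups that did not overlap: PFKP/PFKL, ALDOA/ALDOC, PDK1/PDK2, PDK1/PDK3 and PDK1/PDHA1. Among single genes, the groups did not overlap in 4270 of the 14582 tested, and no such share was computed for pairs of other genes. PDK1/PDK2, PDK1/PDK3 and PDK1/PDHA1 share PDK1, which was called above, so they are not separate results. Each of these had an exact two-sided permutation p of 0.1, the smallest that 3 against 3 libraries allow, and 0.280 after adjustment over the 14 pairs, so no pair could pass the threshold. The ratio of PDK1 to PDHA1 reads was 0.416, 0.384 and 0.354 in co-culture libraries 1, 2 and 3 and 0.325, 0.282 and 0.232 in controls 1, 2 and 3. The ratio of PDK1 to PDK2 reads was 1.02, 1.03 and 0.910 against 0.745, 0.780 and 0.612. Both ratios were higher in co-culture, by 0.47 and 0.48 on the log2 scale. The ratio of ALDOA to ALDOC reads was lower in every co-culture library, with 155, 165 and 174 against 180, 410 and 377. LDHA to LDHB reads stood at 0.852, 0.929 and 0.919 against 0.881, 0.662 and 0.606. There control 1 lay inside the co-culture range, and the difference of 0.35 on the log2 scale had an exact permutation p of 0.2 (0.350 adjusted). PDK1 to PDP1 reads, a kinase against its opposing phosphatase, overlapped between the groups (log2 difference 0.21, exact permutation p 0.4, 0.560 adjusted).

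**Figure D4:**
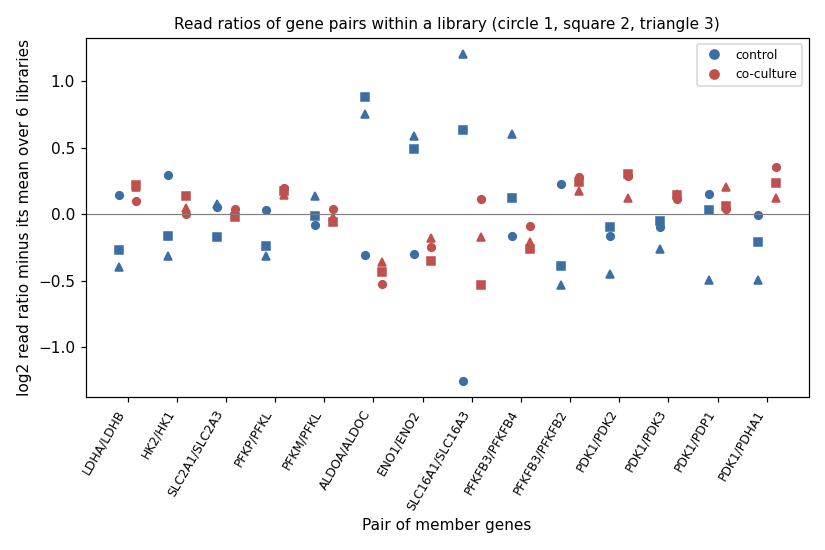
Log2 ratio of the reads of 2 genes within each library, minus the pair's mean over the 6 libraries (vertical axis), for 14 pairs (horizontal axis), with controls in blue, co-culture in red and the replicate number as the symbol. The red and blue points separate for PDK1/PDK2, PDK1/PDK3 and PDK1/PDHA1, while the circle of control 1 lies among or beyond the red points for LDHA/LDHB, ENO1/ENO2 and HK2/HK1.

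Neighbouring genes of the same metabolism were set beside the 32. Of 45 other genes of glycolysis and pyruvate use, 29 were tested, and 1 was higher and 0 lower, a share of 3.45% beside the 4.83% of all tested genes. At an unadjusted p under 0.05, 1 was higher and 5 were lower (20.7%), beside 23.2% of all tested genes in either direction. The median log2 fold change was -0.02. Without control 1, 3 were higher and 4 lower, with a median of -0.08, beside 20.8% of all genes called then. The gene that rose was EMB (embigin), a membrane partner of monocarboxylate carriers, at 111 ± 6.15 CPM against 92.1 ± 5.79 CPM in the controls (0.27 on the log2 scale, SE 0.07, edgeR adjusted p 0.0491). EMB was at 0.23 with the strand class in the model (edgeR adjusted p 0.398), and without control 1 at 0.22 (edgeR adjusted p 0.0107). PGAM2, the muscle phosphoglycerate mutase, had -1.05 (SE 0.29, edgeR adjusted p 0.0607), at 1.03 ± 0.221 against 2.21 ± 0.658 CPM. PGAM2 had only 18 to 58 reads per library, and 59.5% of all reads over it lay on the opposite strand. Pyruvate carboxylase (PC), which makes oxaloacetate, had -0.39 (SE 0.12, edgeR adjusted p 0.0957). SLC2A8, an intracellular sugar transporter, had -0.23 (SE 0.09, edgeR adjusted p 0.147). The 16 genes of the tricarboxylic acid cycle were all tested and 0 were called by edgeR, beside the 4.83% of all tested genes. Their median was -0.05, with a range from -0.19 (OGDH) to 0.13 (IDH3A). At an unadjusted p under 0.05, 2 were lower and 0 higher (12.5%), beside 23.2% of all tested genes. Without control 1, 0 were higher and 1 lower, beside 20.8% of all genes called then.

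Of 18 targets of the hypoxia-inducible factors outside glycolysis, 16 were tested, and 2 were higher and 0 lower, a share of 12.5% beside the 4.83% of all tested genes. Without control 1, 8 were higher and 1 lower, beside the 20.8% of all genes called then, and the median was 0.35. BHLHE40, a transcriptional repressor, rose to 122 ± 6.03 CPM against 76.6 ± 5.98 CPM in the controls (0.67 on the log2 scale, SE 0.07, edgeR adjusted p 0.00105). P4HA2, a collagen prolyl hydroxylase, rose by 0.40 (SE 0.09, edgeR adjusted p 0.0359). Both were above 0 with the strand class in the model, at 0.74 and 0.36 (edgeR adjusted p 0.0356 and 0.337), and without control 1 at 0.73 and 0.51 (edgeR adjusted p 1.05e-07 and 7.33e-05). The median of the 16 was 0.12 with all libraries. Control 1 was the highest of the controls in 14 of them, with a log2 ratio over the mean of controls 2 and 3 of 2.16 for ANKRD37 and 1.55 for NDRG1. These lists were described by their counts and medians and were not tested as sets.

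**Figure D5:**
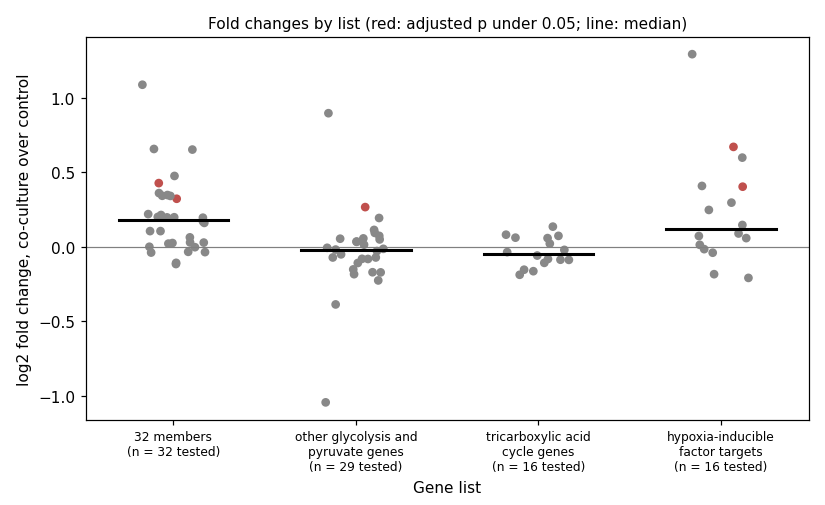
Log2 fold change, co-culture over control (vertical axis), of each tested gene in 4 lists (horizontal axis), with a line at the median and genes at an adjusted p under 0.05 in red. The medians are 0.18 for the 32 genes, -0.02 for other glycolysis and pyruvate genes, -0.05 for the tricarboxylic acid cycle and 0.12 for targets of hypoxia-inducible factors.

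Together the 32 genes took 1.38% ± 0.0778 of the gene-assigned reads in co-culture and 1.27% ± 0.0985 in the controls (SD, n = 3 each). By library the shares were 1.32%, 1.35% and 1.47% in co-culture and 1.38%, 1.27% and 1.18% in the controls. Control 1 thus exceeded co-culture libraries 1 and 2, and the groups overlapped. Reads that map to several places are left out of such shares, and 13 of the 32 genes have at least 1 processed pseudogene named after them in GENCODE release 29.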

How the data were processed

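RNA of 6 sorted samples, 3 per group, was sequenced from stranded libraries, as the labels' protocols state. The authors deposited raw counts of reads per gene, with separate columns by strand, in the layout of STAR's gene counting. The submitters' processing notes name FastQC, STAR 2.53a and the build hg18, while the annotation release is not given in the sources used here. No coordinates were taken from the files, and promoter windows follow RefSeq on GRCh38.p14. Reverse-strand counts were used, and the 4 summary lines (unmapped 1.22% to 1.67%, multimapping 6.48% to 8.42%, no gene 14.8% to 17.7%, ambiguous 0.835% to 1.01%) were left out. Within a group, chi-square values per degree of freedom between libraries ran from 4.73 to 18.6, above counting noise, so no pair was merged as 1 library deposited again.

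Low genes were removed by filterByExpr (minimum count 10), and the rest were scaled by TMM and tested in edgeR 4.0.16 (R 4.3.3, quasi-likelihood, group only) with Benjamini-Hochberg adjustment over 14582 genes at 0.05. CPM values carry that scaling. SEs are the absolute log2 fold change over the square root of F, and the 95% intervals use the fit's degrees of freedom. On simulated data with 14492 genes, 69.7% of 99 genes changed by 0.5 (log2) and 93.8% of 96 changed by 1 were called. Unchanged genes made up 9.66% of the calls, above the 0.05 threshold, and 4 genes were called where nothing was changed. The simulated libraries varied around 1 mean per gene, with no library set apart and no strand class. These rates therefore do not describe the test on the real libraries, which differ in both respects. Alternatives used DESeq2 1.42.0, limma 3.58.1, other filters, scaling and terms, reads without regard to strand, and each library left out.

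The 32 genes, the other lists and the tests were chosen with earlier results of these data known. Values in every library are given for the 12 genes with the smallest p and for some of the isoforms set beside them. PGK1, TPI1 and PGAM1 were added after their values were seen. The 14 pairs were compared by exact permutation.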

Additional observations from a re-analysis of the deposited data

How the results depend on the processing

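The counts of calls, the median and the log2 fold changes of the 32 genes were recomputed under 14 alternatives, and the read ratios without regard to strand and with each library left out. The other lists were recomputed without control 1 only, and the promoter counts were not. The median log2 fold change of the 32 genes stayed above 0, between 0.09 (without control 3) and 0.21 (without control 1). Of the 32 genes, 7 were called in DESeq2 and 0 with library totals, with the strand class as a term or with the replicate block, and between 0 and 18 when 1 library was left out. The cause was not tested. Over all genes, 704 calls became 29 with the strand class as a term, 164 with the replicate block and 65 to 3069 with 1 library left out. The block rests on a shared number only: the deviations of same-numbered libraries correlated at -0.04, -0.09 and -0.09, and no library correlated best with its own number. With the block ALDOA and PDK1 stood at 0.32 and 0.43 (edgeR adjusted p 0.118 and 0.0642).

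Genes near 0 changed sign. With library totals, PFKL, TPI1, LDHB and SLC16A3 were at -0.015, -0.0077, -0.0087 and -0.018. With the strand class as a term, PGAM1 went from -0.001 to -0.70 (edgeR adjusted p 0.0835), and PFKL, TPI1, GAPDH, SLC16A1 and SLC16A3 were at -0.079, -0.24, -0.0024, 0.00014 and -0.27. With no filter PGAM1 was at 0.0018, and without regard to strand PFKM and PGAM1 were at 0.0047 and 0.012. With 1 library left out, LDHB ran from -0.0089 to 0.077, PDHA1 from -0.078 to 0.00072, PDK2 from -0.081 to 0.011, PFKL from -0.034 to 0.083, PFKM from -0.045 to 0.022, PGAM1 from -0.15 to 0.25, SLC16A3 from -0.39 to 1.07 and TPI1 from -0.068 to 0.15. The log2 ratios HK2/HK1, PFKM/PFKL, SLC16A1/SLC16A3 and SLC2A1/SLC2A3 ran from -0.006 to 0.30, -0.072 to 0.035, -1.11 to 0.11 and -0.048 to 0.075. Of 448 values of single genes, 383 kept their direction and side of the threshold.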
